A study of Mus musculus with 27 samples.

Results

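The genes Ptn, Chga, Peg3 and Ntrk3, grouped under the name of neural genes, were measured by 5 mouse probe sets among the 702 that could be tied to a mouse gene, on an array of 1813 probe sets. Members were taken by platform gene symbol: 1 probe set each for Ptn (gene 19242, NM_008973_at), Chga (gene 12652, NM_007693_at) and Peg3 (gene 18616, NM_008817_s_at), and 2 for Ntrk3 (gene 18213, NM_008746_at and NM_008746_s_at). The 4 genes were grouped by name as neural with their deposited intensities across tissues known, brain above all, so that brain levels are described below with no test. In these data 3 of the 4 genes were higher in brain than in the other tissues, while neither Ntrk3 probe set was. As the genes were grouped with these levels known, this cannot test the name.

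Total RNA came from brain and from 8 other tissues (lymph node, thymus, spleen, bone marrow, lung, kidney, liver and testis) of mice of the inbred strain C57BL/6, all wild-type males aged 6 to 8 weeks. Each tissue had 3 arrays, 27 in all, of a custom 1-colour Affymetrix design for genes of glycan synthesis and recognition with added growth factor and immune genes. Neither separate nor pooled animals are named for a tissue's 3 arrays, and the p-values below therefore cover the array-to-array spread, which may be technical. The number of arrays limits the precision.

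Pleiotrophin, the product of Ptn, is a secreted heparin-binding growth factor that binds chondroitin sulfate and heparan sulfate proteoglycans at the cell surface, among them the receptor phosphatase Ptprz1 and syndecan 3, and is known for promoting neurite outgrowth. Chromogranin A, the product of Chga, is an acidic protein of dense-core secretory granules in neurons and neuroendocrine cells. Peg3 is an imprinted gene expressed from the paternal allele that encodes a zinc finger protein, and Ntrk3 encodes TrkC, the receptor tyrosine kinase for neurotrophin 3.

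The promoter windows of the 4 genes were looked for in the RefSeq table for GRCm38.p6. Those of 3 genes were found and are shown, and none was found for Ntrk3. These 3 genes had their highest intensity in the same tissue. Each window runs 5′ to 3′ on the strand of the gene, from 250 bases before the RefSeq start of the gene to 50 bases after it. Ptn lies at chr6:36810130-36810429 on the minus strand, Chga at chr12:102554691-102554990 on the plus strand and Peg3 at chr7:6730370-6730669 on the minus strand. Capitals mark matches to the motifs described after the sequences.
Ptn: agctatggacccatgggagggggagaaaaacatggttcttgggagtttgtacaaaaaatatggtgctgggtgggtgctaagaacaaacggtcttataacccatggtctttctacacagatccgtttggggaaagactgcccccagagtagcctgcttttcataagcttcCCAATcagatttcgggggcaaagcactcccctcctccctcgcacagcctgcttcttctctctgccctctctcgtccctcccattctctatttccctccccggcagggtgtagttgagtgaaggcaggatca
Chga: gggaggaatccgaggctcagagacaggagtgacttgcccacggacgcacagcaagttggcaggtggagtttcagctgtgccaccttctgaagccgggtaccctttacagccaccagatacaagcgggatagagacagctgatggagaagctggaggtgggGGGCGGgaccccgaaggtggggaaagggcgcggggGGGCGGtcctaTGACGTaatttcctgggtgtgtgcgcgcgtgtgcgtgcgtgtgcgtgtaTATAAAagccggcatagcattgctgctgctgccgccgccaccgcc
Peg3: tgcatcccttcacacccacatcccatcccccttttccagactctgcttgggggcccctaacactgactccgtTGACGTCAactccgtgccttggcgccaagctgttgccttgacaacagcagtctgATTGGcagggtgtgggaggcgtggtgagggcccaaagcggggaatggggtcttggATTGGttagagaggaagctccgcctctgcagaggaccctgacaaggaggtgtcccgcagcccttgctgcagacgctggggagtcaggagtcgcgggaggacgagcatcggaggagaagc

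The motifs were searched on both strands in these windows and in all 32851 windows of the same length in the table. The cyclic AMP response element, TGACGTCA, was found in the Peg3 window, starting 178 bases before the gene start, and in 1.79% of all windows. Its core, TGACGT, which any full element contains, was found in the Chga window 44 bases before the gene start and in the Peg3 window, and in 7.51% of all windows. The Ptn window held neither. TATAAA, the letters of a TATA box, was found in the Chga window, at base 6 of the annotated gene, and in 13.6% of all windows. The GC box letters GGGCGG occurred at 2 places in the Chga window (35.7% of all windows), and CCAAT, or its complement ATTGG, in the Ptn and Peg3 windows (37.4% of all windows). The letters GCCATNTT of a YY1 site were in none of the 3 windows and in 6.05% of all windows. No motif searched was shared by the 3 windows. The windows also differed in base composition, with 62.0% G and C bases and 21 CpG dinucleotides for Chga, 61.3% and 13 for Peg3, and 52.0% and 6 for Ptn, beside medians of 52.7% and 7 over all windows. These matches describe letters and are no sign of binding.

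Intensities are given on the linear scale on which the authors deposited them. The array also carries 839 probe sets for human genes, which serve here as a rough measure of non-specific signal from mouse RNA, with a median of 205.2 and a 95th percentile of 590.1. Where one of the levels compared falls in that range, the fold compares signals and cannot be read as a ratio of transcripts. Over the mouse probe sets, the closest match of each of the 27 arrays was from the same tissue. Brain replicate 2 stood somewhat apart from the other brain arrays: its correlation was 0.942 with replicate 1 and 0.952 with replicate 3, beside 0.986 between replicates 1 and 3. Over all tissues, arrays of the same tissue correlated at 0.935 to 0.987. The 95th percentile of human probe sets was 512, 606 and 547 on brain replicates 1, 2 and 3. The 5 probe sets for neuron markers summed to 7220 to 7457 on the brain arrays, against 1367 to 2561 on the 24 others, and the 4 for oligodendrocyte markers to 2763 to 3209, against 675 to 2069. The neuron sum was carried by the 2 probe sets of Cx3cl1, and some single markers, described further on, were highest outside brain.

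Ptn had the largest fold between brain and the other tissues among the 5 probe sets. Its intensity was 1776, 1092 and 1482 on the 3 brain arrays, a mean of 1450 ± 343 (SD, n = 3). On the other 24 arrays it lay between 87.0 and 220.6, with a median of 122.2. All 3 brain arrays lay above every other array and above the 95th percentile of human probe sets on their own array, whereas 1 of the 24 others exceeded even the human median of its array. The mean in brain was 7.73-fold that of the next tissue, lymph node. On the log2 scale brain exceeded the mean of the other 8 tissues by 3.46 ± 0.11 (SE), or 11.0-fold. It was 4.07, or 16.8-fold, with quantile normalization, and 3.65, or 12.6-fold, without brain replicate 2.

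Below brain, Ptn was highest in the lymphoid organs lymph node and thymus. Lymph node arrays read 153.2, 188.9 and 220.6, and thymus arrays 167.8, 177.2 and 165.6. These 2 tissues overlapped each other, and no array of the other 6 tissues reached them: testis, next in order, read 141.2, 140.6 and 132.2. Kidney followed at 116.1 to 136.0, bone marrow at 113.9 to 118.5, lung at 103.9 to 110.5, liver at 87.0 to 126.0 and spleen at 95.2 to 106.4. Of the 8 pairs of neighbours in the order of the 9 tissues, 5 overlapped. The steps without overlap were brain to lymph node, thymus to testis, and bone marrow to lung.

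Chga varied less among the brain arrays than Ptn or Peg3. Its intensity was 874, 790.1 and 893 on the brain arrays, a mean of 852 ± 54.6, against 199.9 to 339.9 with a median of 237.4 on the other 24 arrays. The brain arrays again lay above every other array and above the 95th percentile of human probe sets. The others lay below that percentile, and 23 of the 24 were above the human median of their array. Brain exceeded the mean of the other 8 tissues by 1.80 ± 0.09 on the log2 scale (3.49-fold), and its mean was 2.77-fold that of thymus, the next tissue.

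Thymus, with 339.9, 269.0 and 315.0, was the tissue with the second highest Chga intensity. Its lowest array overlapped testis, which read 275.3, 261.0 and 242.7. Bone marrow, spleen, liver, kidney and lung followed, with overlapping ranges between 199.9 and 314.5, the widest of them in liver (314.5, 199.9 and 224.9). Lymph node was lowest at 204.3, 206.7 and 207.3, below every array of lung, its neighbour in the order. Of the 8 neighbouring pairs, 6 overlapped.

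Peg3 varied more among the brain arrays than the other 2 genes high in brain. Its intensity was 580.1, 892 and 1035, a mean of 836 ± 233, against 105.0 to 283.5 with a median of 145.4 on the other 24 arrays. The lowest brain value was still above every other array, and all 3 exceeded the 95th percentile of human probe sets on their own array, though replicate 1 lay below the 590.1 of all arrays together. Brain exceeded the mean of the other 8 tissues by 2.43 ± 0.13 on the log2 scale (5.40-fold), or by 2.68 (6.39-fold) without brain replicate 1. The mean in brain was 3.78-fold that of lung.

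Lung and kidney came after brain for Peg3, at 190.1, 209.8 and 263.2 in lung and 184.8, 187.0 and 283.5 in kidney. They overlapped each other, and all their arrays lay above those of the remaining 6 tissues. Lymph node, spleen and liver formed an overlapping middle group at 137.8 to 173.6, and thymus, testis and bone marrow a low group at 105.0 to 138.4. Liver did not overlap thymus, its neighbour in the order, since its lowest array was 138.5 and the highest thymus array 138.4. The lowest lymph node array, 137.8, lay below that thymus array, so the middle and low groups overlapped. In the tissues other than brain, 3 of the 24 arrays exceeded the human probe set median of their array.

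Neither Ntrk3 probe set was higher in brain, and no brain array of either exceeded the 95th percentile of its human probe sets. Within that range of non-specific signal, a flat reading cannot show whether the transcript differs in brain. With NM_008746_at the brain arrays read 211.3, 128.1 and 202.1, against 113.4 to 216.1 with a median of 162.9 on the other 24. Brain was the third highest tissue after testis and kidney, all 8 pairs of neighbours overlapped, and the difference between brain and the mean of the other 8 was 0.09 ± 0.14 on the log2 scale. That difference turned to -0.04 without brain replicate 1 and -0.01 without brain replicate 3, and was 0.32 without replicate 2, the lowest of the brain arrays. For this probe set, 1 of the 3 brain arrays and 2 of the 24 others exceeded the human probe set median of their array. With NM_008746_s_at the brain arrays read 456.4, 517.4 and 482.8, against 432.8 to 631.9 with a median of 528.2 on the others. Brain was eighth of the 9 tissues, with a difference of -0.12 ± 0.07. This probe set was highest in lymph node, at 615.5, 631.9 and 619, where every array exceeded the 95th percentile of its human probe sets and lay above every thymus array, and lowest in kidney, at 451.7, 440.9 and 432.8, below every brain array.

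**Figure D1:**
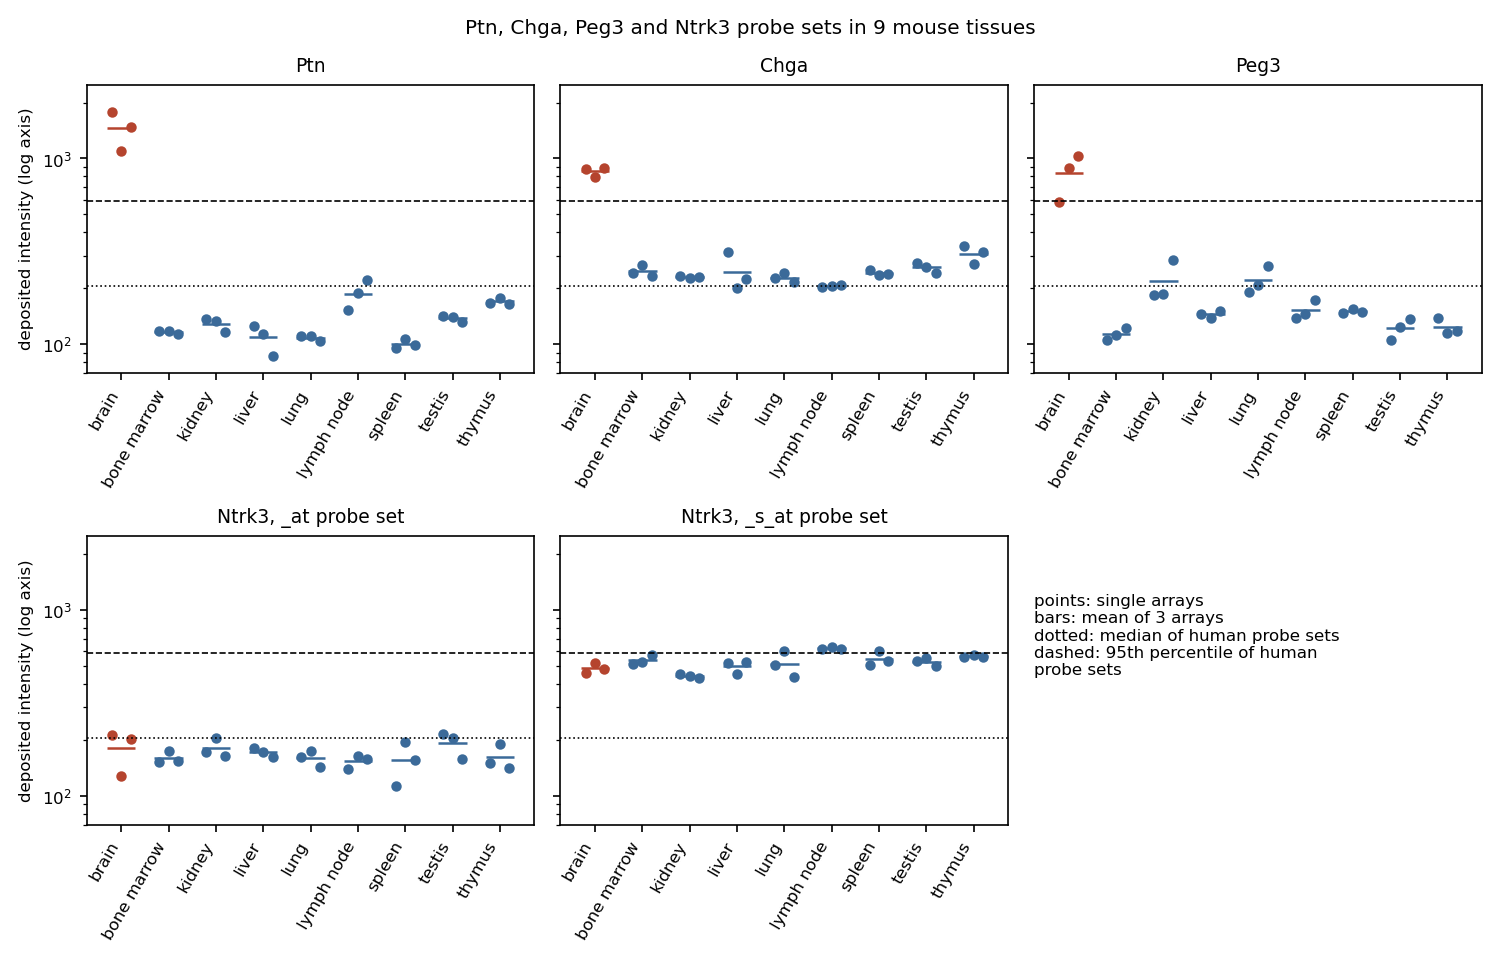
Deposited intensity (log axis) of the 5 mouse probe sets on each of 27 arrays, by tissue, with brain in red at the left; points are arrays, bars are means of 3 arrays, and the lines mark the median (205.2, dotted) and 95th percentile (590.1, dashed) of human probe sets over all arrays. Ptn, Chga and Peg3 stand above every other array in brain, and the brain arrays of both Ntrk3 probe sets lie within the range of the other tissues.

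The spread among brain arrays differed by gene and did not run in the same order. The SD of the log2 values was 0.35 for Ptn, 0.43 for Peg3, 0.09 for Chga, 0.40 for the Ntrk3 _at and 0.09 for the Ntrk3 _s_at probe set, beside a median of 0.14 over all 702 mouse probe sets in brain. Peg3 had a larger brain SD than 92.7% of mouse probe sets and Ptn than 88.2%. Brain replicate 1 was the highest of the 3 for Ptn and the lowest for Peg3, and brain replicate 2 was the lowest for Ptn, Chga and the Ntrk3 _at probe set. What part the lower correlation of brain replicate 2 with the other brain arrays has in these orders was not tested.

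Differences among the 8 tissues other than brain, which hold no brain array, could be tested. limma's moderated F test was fitted on the 24 arrays over all 702 mouse probe sets, and calls needed a Benjamini-Hochberg adjusted p under 0.05 and tissue means spanning 1 or more on the log2 scale. None of the 5 probe sets was called, in a background where 49.9% of mouse probe sets were. By the adjusted p alone, 4 of the 5 passed, where 85.0% of mouse probe sets did, so that this share is near the background. Peg3 had the widest range, 0.95 on the log2 scale or 1.94-fold (limma adjusted p = 1.58e-05), followed by Ptn at 0.89 or 1.85-fold (limma adjusted p = 4.12e-06). Chga spanned 0.57 (limma adjusted p = 0.0130), the Ntrk3 _s_at probe set 0.49 (limma adjusted p = 0.00787) and the Ntrk3 _at probe set 0.34 (limma adjusted p = 0.446). The Ptn and Peg3 ranges sit just under the size threshold. Ptn reached 1.03 and was called without lymph node replicate 1. Peg3 was called at 1.01 to 1.06 when any 1 of bone marrow replicate 3, kidney replicate 1, kidney replicate 2 or lung replicate 1 was left out. The adjusted p of Chga passed 0.05 without thymus replicate 1 (limma adjusted p = 0.0662) or thymus replicate 3 (limma adjusted p = 0.0513), and that of the Ntrk3 _s_at probe set with quantile normalization (limma adjusted p = 0.0526) or with the mean of both Ntrk3 probe sets (limma adjusted p = 0.814).

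Each of the 8 tissues was also set against the mean of the other 7 in the same fit. None of the 5 probe sets was called at an absolute log2 difference of at least 1 in any of the 8 contrasts. The share of mouse probe sets called was 9.97% in bone marrow, 15.0% in kidney, 13.5% in liver, 11.3% in lung, 12.1% in lymph node, 10.3% in spleen, 18.1% in testis and 6.41% in thymus. Of the 40 values of the 5 probe sets, 14 had an adjusted p under 0.05 with differences of at most 0.62 in size. The shares above also need the size threshold and are no background for these 14. The share of mouse probe sets by adjusted p alone was not counted for these contrasts. For Ptn, lymph node differed by 0.60 ± 0.09 (limma adjusted p = 1.57e-05) and thymus by 0.46 ± 0.09 (limma adjusted p = 4.97e-04), while spleen differed by -0.42 ± 0.09 (limma adjusted p = 9.29e-04). For Peg3, lung differed by 0.62 ± 0.11 (limma adjusted p = 1.08e-04), kidney by 0.58 ± 0.11 (limma adjusted p = 1.92e-04) and bone marrow by -0.47 ± 0.11 (limma adjusted p = 0.00181). The tissues that led for one gene were not those that led for the other.

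For Chga, thymus differed by 0.38 ± 0.09 (limma adjusted p = 0.00255) and lymph node by -0.28 ± 0.09 (limma adjusted p = 0.0180). For the Ntrk3 _s_at probe set, lymph node differed by 0.27 ± 0.08 (limma adjusted p = 0.00544) and kidney by -0.29 ± 0.08 (limma adjusted p = 0.00271), while no tissue had an adjusted p under 0.05 for the _at probe set. Lymph node was thus at the top of the 8 tissues for Ptn and for the Ntrk3 _s_at probe set and at the bottom for Chga. In bulk tissue, fewer cells of a type and less RNA per cell cannot be told apart. Nearly all of these levels of Ptn and Peg3 lie below the human probe set median, and the part of non-specific signal in these differences was not tested.

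**Figure D2:**
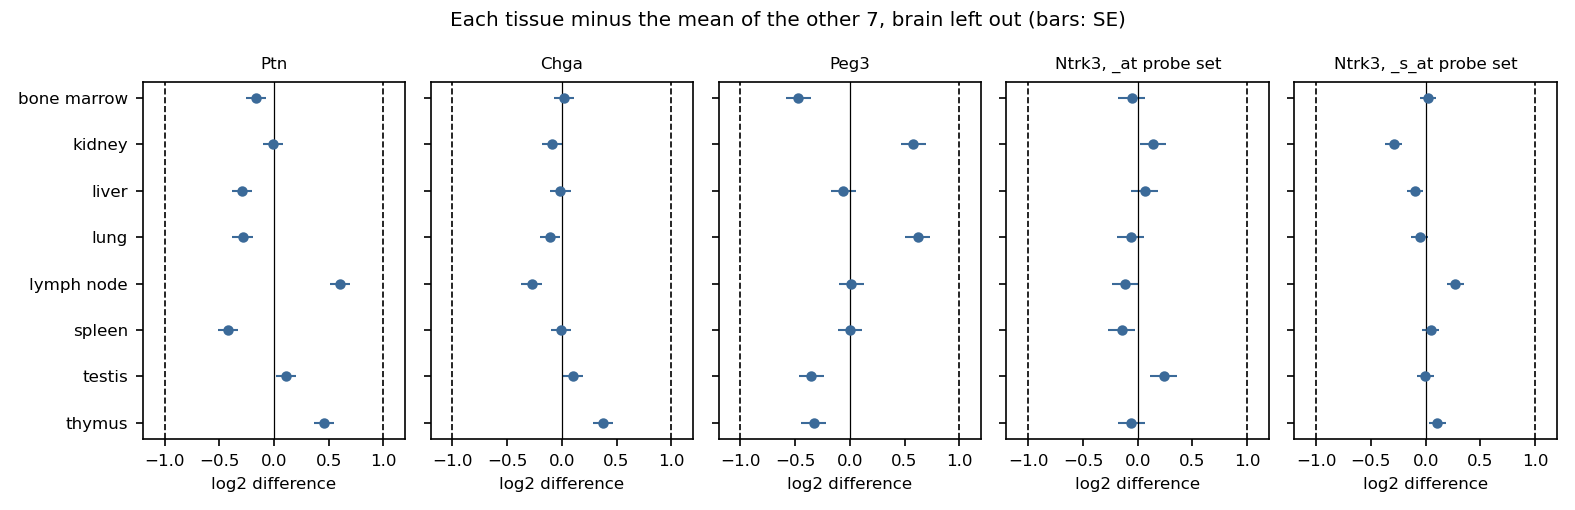
Log2 difference between each of 8 tissues and the mean of the other 7, with brain arrays left out, for the 5 mouse probe sets; points are limma estimates, bars are SE, and dashed lines mark the size threshold of 1. All 40 points lie between the dashed lines, with lymph node and thymus highest for Ptn (0.60 and 0.46) and lung and kidney highest for Peg3 (0.62 and 0.58).

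The 3 genes high in brain resembled each other over all 9 tissues and not over the 8 without brain. Across the 9 tissue means of log2 intensity, Pearson's r was 0.94 between Ptn and Chga, 0.87 between Ptn and Peg3 and 0.84 between Chga and Peg3. Without brain, across 8 tissue means from the same arrays, it was 0.11, -0.26 and -0.54 for the same pairs. The choice of genes high in brain fixes a likeness over the 9 tissues, so that it supports nothing further. The Ntrk3 _s_at probe set had r of -0.14 with Ptn, -0.28 with Chga and -0.45 with Peg3 over 9 tissues. Without brain these values were 0.56, -0.01 and -0.51.

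Among the 572 other mouse genes, compared by 1 probe set each, the genes most like Ptn over the 9 tissues were Chga (0.94), the sulfotransferase gene Chst2 (0.91), Fgf13 (0.91), the lactosylceramide synthase gene B4galt6 (0.90) and Fgf11 (0.90). Those most like Chga were Fgf13 (0.97), Ptn (0.94), Fgf11 (0.92), Mag, which encodes a myelin glycoprotein (0.92), and Chst2 (0.91). Those most like Peg3 were Chst2 (0.97), the chemokine gene Cx3cl1 (0.95), the glucuronyltransferase gene B4gat1 (0.93), Cntfr (0.92) and the exostosin-like gene Extl2 (0.92). Chst2 stood in all 3 lists, and Fgf13 and Fgf11 in those of Ptn and Chga. Brain exceeded the other tissues by 1.29 for Chst2, 0.96 for Fgf13 and 0.26 for Fgf11 on the log2 scale. The Ntrk3 _s_at probe set was most like Cd2 (0.87), Itga4 (0.86), Il7r (0.86), Cxcr6 (0.85) and Ccr7 (0.85). Its own range was 0.49, against 3.38 for Il7r and 3.51 for Ccr7.

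Over the 8 tissues without brain, likeness was to other genes. Ptn was most like Nans (0.84), Cd209e (0.80) and the chemokine gene Ccl8 (0.77). Chga was most like the thymic chemokine gene Ccl25 (0.84), Csf2 (0.82) and C1galt1 (0.77). Peg3 was most like Vegfa (0.93), Aga (0.91) and the Wnt receptor gene Fzd4 (0.91), and the Ntrk3 _s_at probe set like Extl1 (0.90), Cd2 (0.86) and Itga4 (0.85). With 8 points and 572 genes, such values describe these arrays only, and several of the genes hardly vary: Nans ranged over 0.31 and Csf2 over 0.29 on the log2 scale.

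Other genes of the pathways were set beside the 4 genes in brain. Brain was set against the mean of the other 8 tissues with limma over all 702 mouse probe sets, of which 39 (5.56%) were called higher and 75 (10.7%) lower, and 58 and 65 with quantile normalization. Of 25 listed genes of pleiotrophin and midkine signalling, 14 were measured by 17 probe sets, of which none rose and 1 fell, counts too small to set the list apart from all mouse probe sets. The list's median difference was 0.01 on the log2 scale, beside -0.07 over all mouse probe sets. Mdk, which encodes midkine, the other member of the pleiotrophin family, had 474 ± 9.26 in brain and differed by 0.22 ± 0.07 (limma adjusted p = 0.00573, under the size threshold). Its highest level was in kidney, at 714 ± 63.5. Sdc3, the gene of the pleiotrophin receptor syndecan 3, had 234.0 ± 13.5 in brain and differed by 0.06 ± 0.07 (limma adjusted p = 0.554). Ncan, the gene of the brain chondroitin sulfate proteoglycan neurocan, differed by 0.52 ± 0.06 (limma adjusted p = 2.57e-07, under the size threshold), with 349 ± 8.11 in brain, its highest tissue, and 293 ± 31.4 in testis. The 1 gene that fell was Itgb1, the beta 1 integrin subunit, at 541 ± 91.7 in brain, with a difference of -1.61 ± 0.14 (limma adjusted p = 8.95e-10) and its highest level, 5622 ± 392, in lung.

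Ntrk2, the gene of the related neurotrophin receptor TrkB, was called higher in brain. Of 23 listed neurotrophin and related ligands, receptors and adaptors, 9 were measured by 12 probe sets, of which 1 rose and none fell. Beside 5.56% higher and 10.7% lower over all mouse probe sets, these counts are too small to set the list apart. The list's median difference was 0.26. Ntrk2 read 55.0, 125.2 and 141.7 on the brain arrays, against 26.7 to 61.2 on the others, and brain exceeded the other tissues by 1.27 ± 0.18 (2.40-fold, limma adjusted p = 1.56e-06). Brain replicate 1 overlapped kidney, all values lay below the human probe set median, and the call was lost with intensities under 64 raised to 64 (0.70). Bdnf, the gene of the TrkB ligand, read 268.5, 246.7 and 296.4 in brain, with a difference of 0.73 ± 0.09 (limma adjusted p = 1.08e-07, under the size threshold). Cntfr, the receptor gene for ciliary neurotrophic factor, differed by 0.47 ± 0.10 (limma adjusted p = 2.13e-04, under the size threshold). The 2 probe sets of Gfra2, a co-receptor gene for neurturin, differed by 0.38 ± 0.12 and 0.41 ± 0.10 (limma adjusted p = 0.0100 and 0.00117, under the size threshold). Both were highest in testis, at 324 ± 56.0 and 357 ± 89.1, against 312 ± 48.2 and 307 ± 26.3 in brain. The other measured genes of the list differed by -0.16 to 0.31, with no limma adjusted p under 0.05. Ntf3, the gene of the TrkC ligand, was not analysed here.

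Of 20 listed imprinted genes, set beside Peg3, 1 was measured. Igf2, which encodes insulin-like growth factor 2 and is also expressed from the paternal allele in most tissues, read 1169, 1128 and 1095 in brain, against 361 to 727 on the other arrays. Brain exceeded the mean of the other 8 tissues by 1.13 ± 0.09 (2.20-fold, limma adjusted p = 1.51e-10), and no brain array overlapped another tissue. None of the 15 listed granin and secretory granule genes, set beside Chga, was among the probe sets analysed.

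**Figure D3:**
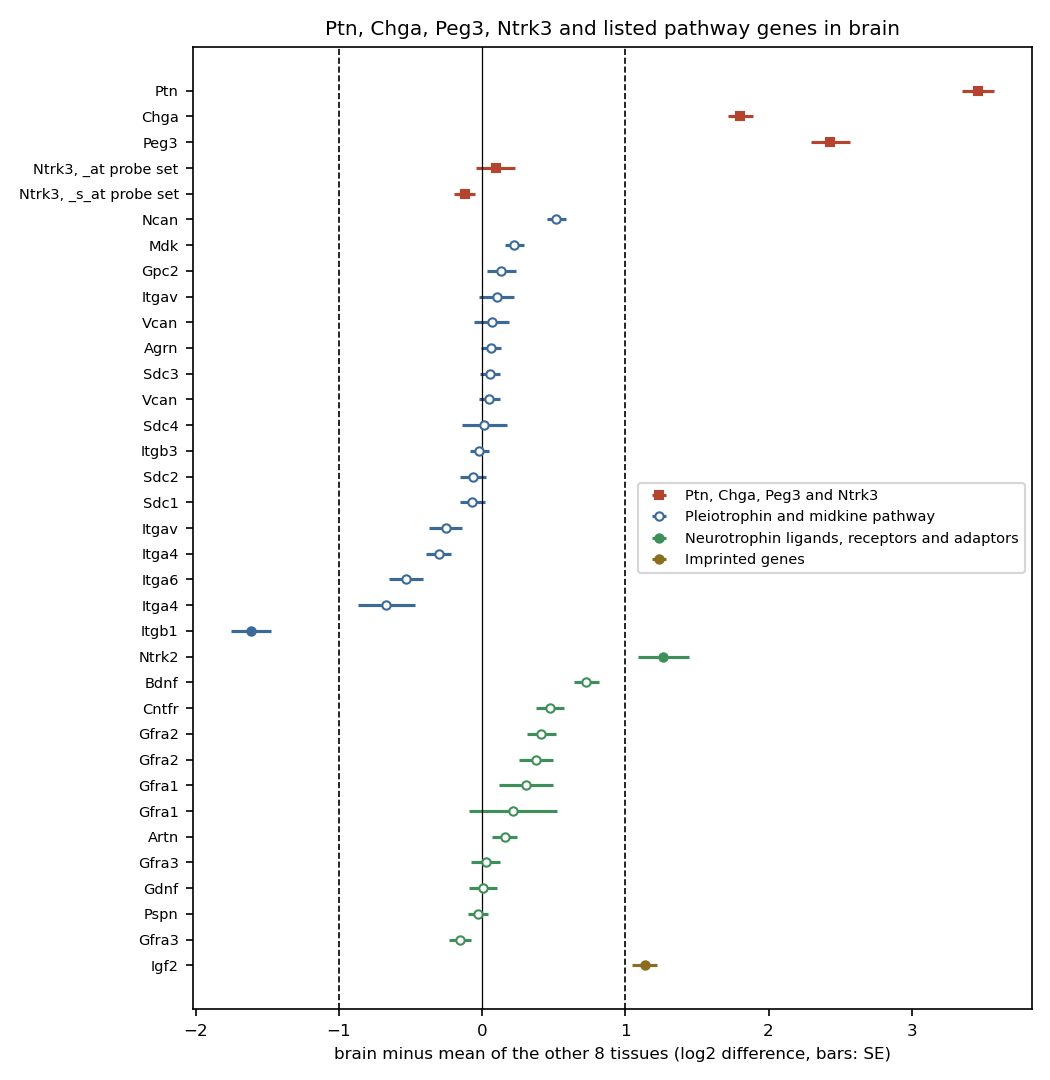
Log2 difference between brain and the mean of the other 8 tissues for the 5 probe sets of Ptn, Chga, Peg3 and Ntrk3 (squares) and for the probe sets of listed pathway genes (circles, filled where called by limma); bars are SE and dashed lines mark the size threshold of 1. Ptn, Chga and Peg3 lie at 3.46, 1.80 and 2.43, both Ntrk3 probe sets lie near 0, and among listed genes Itgb1, Ntrk2 and Igf2 pass the threshold.

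Some markers of brain cells, and of blood and stromal cells, differed between brain and the other tissues, and others were not called. Over all mouse probe sets, 5.56% were called higher in brain and 10.7% lower. The marker lists are small and several hold 2 probe sets of 1 gene, and their counts were not tested against these shares. Of 5 neuron marker probe sets, 2 rose in brain, both of Cx3cl1 (16.1-fold and 10.1-fold, limma adjusted p = 2.94e-20 and 2.21e-21), while L1cam (0.60 ± 0.09), St8sia3 (0.42 ± 0.08) and Ncan stayed under the size threshold. St8sia3 was highest in testis, at 1041 ± 66.2, and had 896 ± 64.8 in brain. Of 4 oligodendrocyte marker probe sets, 3 rose, both of Ugt8a and 1 of Mag (5.40-fold, limma adjusted p = 5.39e-17), and the other Mag probe set differed by 0.89 ± 0.08. Both Ugt8a probe sets were higher in kidney than in brain, with 396 ± 51.4 in brain and 531 ± 75.1 in kidney for one, and 511 ± 85.3 in brain and 686 ± 71.8 in kidney for the other. The 1 astrocyte and precursor marker, Bcan, was not called. None of 5 microglia and macrophage marker probe sets rose and 4 fell, while the fifth, of the microglial receptor gene Cx3cr1, differed by 0.58 ± 0.08 (limma adjusted p = 7.84e-07, under the size threshold). No probe set of the remaining marker lists rose. Those that fell were 1 of 5 for endothelium, 3 of 10 for fibroblasts, 2 of 4 for neutrophils, 3 of 6 for T cells, 2 of 6 for B cells and 1 of 3 for lung epithelium, and none of 4 for hepatocytes, 2 for high endothelium or 2 for male germ and Sertoli cells. The T cell list includes 2 probe sets of the thymic chemokine gene Ccl25, neither of which was called. Among markers not called, the fibroblast gene Fmod differed by 0.69 ± 0.12 and the endothelial gene Cd34 by 0.25 ± 0.14. Summed macrophage marker intensity was 665 to 853 on the brain arrays, against 603 to 6166 on the others. The part of cell makeup in the levels of Ptn, Chga and Peg3 was not tested.

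The 2 mouse probe sets of Ntrk3 did not follow each other. Over the 9 tissue means their correlation was -0.62, and over the 8 without brain -0.59. It stayed negative with median centring (-0.60 and -0.56) and turned positive with quantile normalization (0.22 and 0.29). The _s_at ending marks a probe set whose probes can match more than 1 transcript, and Ntrk3 is known to produce full-length and kinase-lacking forms; which forms either probe set reads was not analysed here. Tissue ranges of 0.34 and 0.49 on the log2 scale leave little variation for the correlation to measure.

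Human probe sets for 3 of the genes, read with the same mouse RNA, showed little or none of the brain difference. The human PTN probe set read 432.1, 601.7 and 450.7 in brain, against 322 to 473 on the other 24 arrays, so that 1 brain array, replicate 2, lay above all others, and brain overlapped testis. Its order among the brain arrays was opposite to that of mouse Ptn, which was lowest on replicate 2. The human CHGA probe set read 305.6 to 324.6 in brain, against 236.7 to 472.4 on the others, with its highest mean in liver (417 ± 62.4). The human NTRK3 probe set read 196.4 to 303.4 in brain, against 144.7 to 293.0, with its highest mean in testis (243 ± 47.3). Over the 9 tissues, r with the mouse probe set was 0.70 for PTN, 0.06 for CHGA, and 0.42 and 0.09 for NTRK3 with the _at and the _s_at probe set; the last was 0.66 with quantile normalization. Without brain, r was 0.43 for PTN and 0.46 for CHGA. These values were unstable: taken over the arrays of 1 title number at a time, r over the 9 tissues was 0.13, 0.86 and 0.59 for PTN, and 0.28, -0.63 and -0.17 for NTRK3 with the _at probe set.

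**Figure D4:**
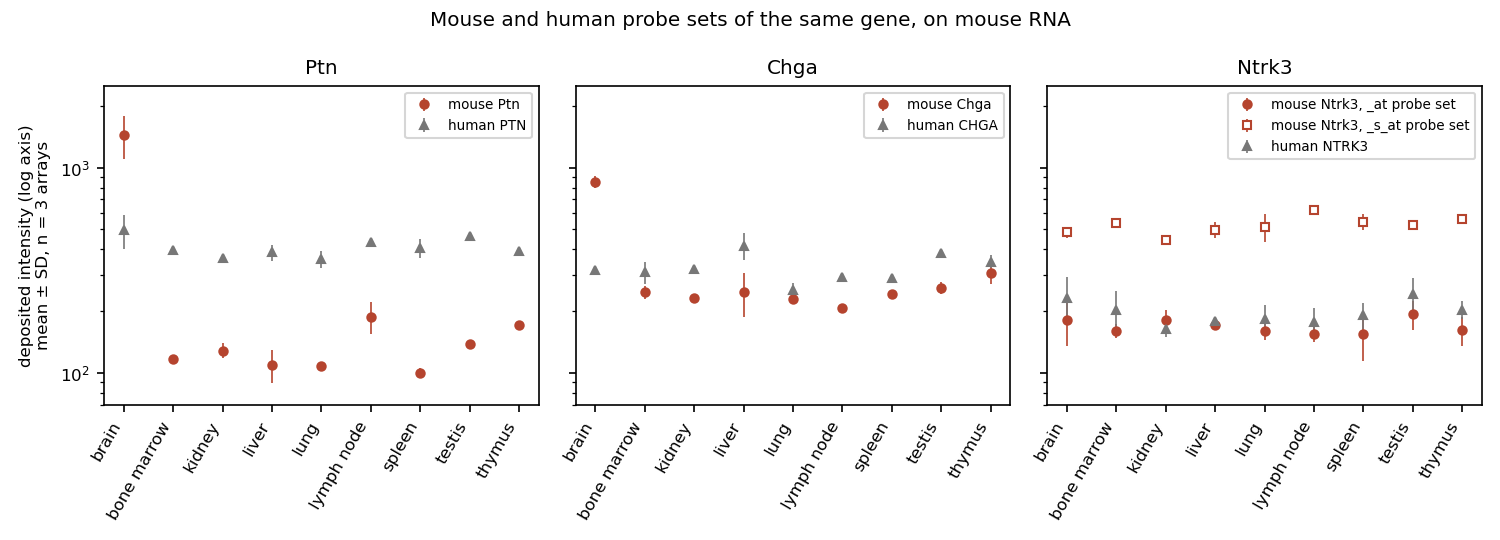
Deposited intensity (log axis, mean ± SD of 3 arrays) of mouse probe sets (red) and human probe sets (grey) of the same gene in 9 mouse tissues, brain at the left. Mouse Ptn (1450) and Chga (852) stand in brain above their own values in every other tissue, human CHGA (315) does not, and human PTN (495) overlaps testis, while in brain both Ntrk3 probe sets and the NTRK3 probe set lie within the range of their other tissues or overlap it.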

How the data were processed

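Biotin-labelled total RNA from 27 samples (9 tissues) was read on a custom Affymetrix array, per the labels. The deposited values are linear intensities, with summary method, background correction and scaling not given in the sources used. Array medians were nearly equal (221.5 to 243.7), so the intensity values were kept as deposited by the authors. Identical arrays were looked for, with 0 pairs found.

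Names came from the platform annotation: 1563 had 1 symbol, 2 several and 248 none. Gene identifiers matched 702 probe sets (573 genes) to mouse RefSeq (GRCm38.p6); 839 were human. Control probe sets were left out. Intensities under 16 were raised to 16 (51 values, 0.269% of mouse values) and log2 taken.

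Tissue means were fitted in limma 3.58.1 (lmFit, eBayes; R 4.3.3): on 24 arrays without brain for the F test over 8 tissues and each tissue against the other 7, weighted equally, and on all 27 arrays for brain against the other 8. Benjamini-Hochberg adjustment ran over all 702 mouse probe sets, and calls needed an adjusted p under 0.05 and a log2 difference or range of at least 1. Likeness was Pearson's r of log2 tissue means, with 1 probe set per gene (highest mean). Named were all probe sets of the 4 genes, the 5 genes most like each over 9 tissues and the 3 over 8, and called list genes with up to 4 others per list. The genes and lists were chosen with earlier results of these data known. In simulated data with 702 probe sets, lymph node against the other 7 called 100% of log2 changes of 1.5, 2 or 3. It called 0% of changes of 0.5, which is under the size threshold, and 0% of unchanged probe sets. The F test called 98% of changes of 1.5. No change between 0.5 and 1.5 was simulated, so the check does not cover sizes near the threshold, such as the Ptn and Peg3 ranges. Calls also need that threshold, so the 0% for unchanged probe sets does not measure false calls by adjusted p alone. Alternatives were other scalings, floors, probe set choices, a block for the title number, array weights, variance settings, and leaving out each array. Over all mouse probe sets, arrays of different tissues that share a title number did not in general deviate together. Their median r was 0.021 over 108 pairs (-0.37 to 0.58), beside 0.014 over 216 pairs of different numbers (-0.44 to 0.42). The numbers were therefore not taken to pair samples. Peg3 rose at each step of the title number in brain, bone marrow, kidney, lung, lymph node and testis, and not in liver, spleen or thymus. Its F test gave limma adjusted p = 2.56e-06 with the block and 1.58e-05 without it. The cause was not tested.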

Additional observations from a re-analysis of the deposited data

How the results depend on the processing

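The counts of called probe sets stayed within 1.5 times under every alternative except when the 234 probe sets with the lowest mean were left out, which tests fewer probe sets: brain then had 20 higher calls instead of 39, and bone marrow against the other 7 had 46 instead of 70. Leaving out 1 array gave 347 to 355 calls for the F test without brain, 65 to 74 for bone marrow, 102 to 107 for kidney, 95 to 102 for liver, 75 to 86 for lung, 79 to 93 for lymph node, 68 to 73 for spleen, 120 to 132 for testis, 43 to 51 for thymus, and 38 to 45 higher and 73 to 80 lower for brain. With the title number as a replicate block, the F test called 350 probe sets, as many as without it, and the block changed no call of the 4 genes. With quantile normalization the correlation of the 2 Ntrk3 probe sets was 0.22 over 9 tissues and 0.29 over 8, and that of the Ntrk3 _s_at with the human NTRK3 probe set was 0.66 and 0.82; the cause was not tested.

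Over all alternatives and left-out arrays, brain exceeded the other 8 tissues by 3.30 to 4.07 for Ptn, 1.74 to 2.14 for Chga and 2.26 to 2.76 for Peg3 on the log2 scale, and differed by -0.04 to 0.32 and -0.17 to -0.01 for the Ntrk3 _at and _s_at probe sets. Of 1494 recomputed values for the 4 genes without brain, 5 gained a call, and no reported value was a call that could be lost. Of 3128 for listed genes in brain, 15 lost and 4 gained a call. Outside brain most levels lie near the signal of human probe sets, so that folds there compare signals and not transcripts.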
